A study of Mus musculus with 12 samples.

Results

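The genes described here are 7 regulators of epithelial identity in mouse skin and its squamous carcinomas: *Grhl1*, *Grhl2* and *Grhl3* of the Grainyhead-like family, *Ovol1* and *Ovol2* of the Ovo-like family, and *Esrp1* and *Esrp2*, the epithelial splicing regulatory proteins. They were chosen by name, all 7 carried at least 1 ATAC-seq peak, and 18106 of 21883 protein-coding genes did so. Each peak was given to the nearest protein-coding gene within 50 kb, and 122 of 177240 peaks fell to the 7 genes, 67 of them inside a gene's span. Nearness does not show that a peak acts on the gene. Coordinates are those of mm10 (GRCm38). The assay, in which the Tn5 transposase cuts open chromatin, measures accessibility and not RNA or protein.

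All samples are sorted skin cells of female mice of mixed strain. Lgr5 Epcam- (1 sample) and Lgr5 Epcam+ (2 samples) are Epcam-negative and Epcam-positive cells of tumours started through Lgr5CreER, a tamoxifen-dependent Cre driven from the *Lgr5* locus, a marker of hair follicle stem cells. K14 Epcam+ (1 sample) holds Epcam-positive cells of tumours started through K14CreER, driven by the keratin 14 promoter of basal keratinocytes. The 3 tumour groups share floxed p53 on both copies (p53fl/fl) and a homozygous Rosa-YFP reporter. Normal tissue came from wild-type mice as hair follicle (HF, 1 sample) and as the epidermis between follicles (interfollicular epidermis, IFE, 1 sample). The sort used antibodies against CD45, CD31, CD140a and Epcam. How the gates were set and whether the samples, the Lgr5 Epcam+ pair included, came from separate mice is not given in the sources used here, so the p-values take in no more than the spread of the samples at hand, which may be technical.

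Grainyhead-like proteins are transcription factors that bind epithelial enhancers and keep them open. Grhl2 is known as an activator of *Cdh1* and other junction genes, and Grhl3 for its part in forming the skin barrier and closing the neural tube. Ovo-like proteins are zinc finger repressors whose best known targets include *Zeb1*. Esrp proteins bind pre-mRNA and keep epithelial isoforms of genes such as *Fgfr2*, *Cd44* and *Ctnnd1* in place, and their own genes are repressed by Zeb factors. Loss of these regulators accompanies the epithelial-to-mesenchymal transition in many carcinomas.

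Promoter sequences were at hand in RefSeq (GRCm38.p6) for 3 of the 7 genes, and a peak lies over the start shown for each. A further *Grhl1* start, at position 24580719 of chromosome 12, has no peak over it and is not shown. They are shown because the promoters of *Grhl3* and *Ovol2* lost accessibility in Lgr5 Epcam- cells, as the single peaks show, whereas no change was called at that of *Grhl1*. The lines give, from 5′ to 3′ on the gene's strand, the 250 bases before the start, with capitals for a match to CAGGTG, the E-box bound by Zeb and Snail factors, on either strand. They cover chr12:24572037-24572286 (plus strand) for *Grhl1*, chr4:135573633-135573882 (minus strand) for *Grhl3* and chr2:144331363-144331612 (minus strand) for *Ovol2*.
Grhl1: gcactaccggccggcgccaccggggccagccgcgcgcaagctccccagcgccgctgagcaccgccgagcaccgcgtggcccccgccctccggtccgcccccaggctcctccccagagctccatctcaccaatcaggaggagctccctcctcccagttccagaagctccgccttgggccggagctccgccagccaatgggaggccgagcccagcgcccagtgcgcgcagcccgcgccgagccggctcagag
Grhl3: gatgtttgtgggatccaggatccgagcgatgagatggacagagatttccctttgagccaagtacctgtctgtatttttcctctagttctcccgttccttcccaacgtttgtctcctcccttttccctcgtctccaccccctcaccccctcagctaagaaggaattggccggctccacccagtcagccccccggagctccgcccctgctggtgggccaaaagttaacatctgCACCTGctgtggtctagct
Ovol2: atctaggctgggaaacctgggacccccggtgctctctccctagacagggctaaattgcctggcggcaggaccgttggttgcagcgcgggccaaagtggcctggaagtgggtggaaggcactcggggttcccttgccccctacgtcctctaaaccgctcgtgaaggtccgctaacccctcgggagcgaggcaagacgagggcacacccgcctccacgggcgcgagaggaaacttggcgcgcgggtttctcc
In these bases the *Grhl3* promoter held 1 E-box, which begins 19 bases before the start, and the promoters of *Grhl1* and *Ovol2* held none. A further *Grhl3* E-box begins 8 bases after the start, outside the bases shown. Of 32851 RefSeq mouse promoter windows, 17.2% have an E-box in the 250 upstream bases. The letters AACCGGTT (Grainyhead), CCGTTA (Ovo), TGANTCA (AP-1) and GGAATG (Tead), also read on both strands, occur in 0.116%, 2.18%, 6.75% and 12.6% of the windows and in none of the 3 shown. The share of G and C was 75.6% for *Grhl1*, 56% for *Grhl3* and 65.2% for *Ovol2*.

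Counts in peaks came to 32086654 to 62941406 per sample, the highest in Lgr5 Epcam+ sample 1. There were 2 runs for each sample, of single-end and of paired-end reads. In K14 Epcam+ the single-end run held 0.537 counts per paired-end count over chromosomes 16 to X, against 0.912 to 1 in the other 5 samples, and 1.044 over chromosomes 1 to 14. The values of *Grhl2* (chromosome 15) and *Ovol1* (chromosome 19) therefore come from the paired-end runs alone, and those of the other genes from both runs. Levels are CPM, counts scaled by TMM to a common total of counts in peaks, summed over a gene's peaks.

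Every one of the 7 genes had its lowest summed accessibility in Lgr5 Epcam- cells. Among all genes tested, 19% had their lowest value in that sample. The order of the other 5 samples varied from gene to gene, and *Ovol1* spread most among them. Per kb of peak, *Esrp2* was the most accessible of the 7 genes in every sample, with 6.58 CPM per kb in Lgr5 Epcam- and 12.7 to 18.8 CPM per kb elsewhere. *Ovol1* was the least accessible in Lgr5 Epcam-, with 1.08 CPM per kb.

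**Figure D1:**
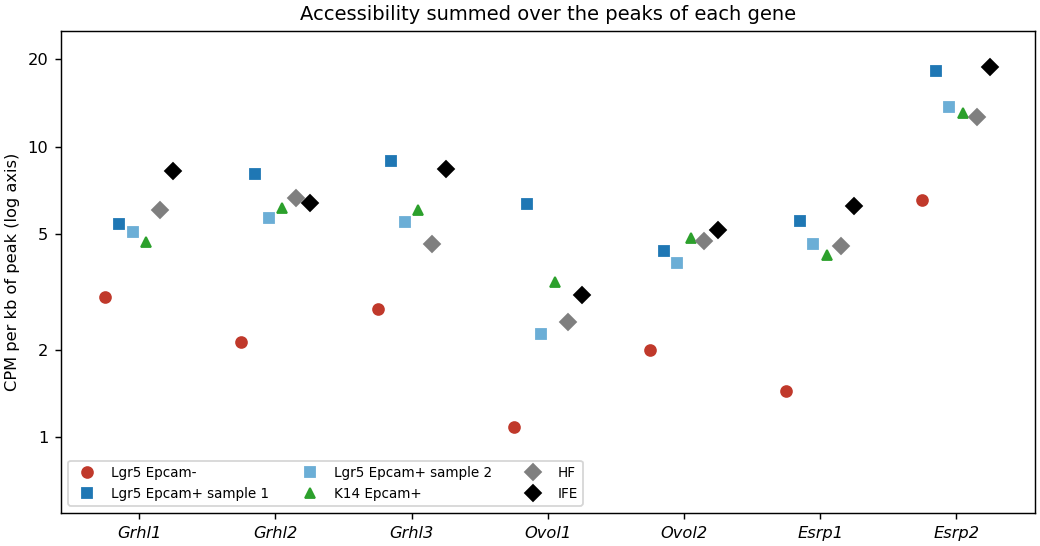
Accessibility of the 7 genes in each of the 6 samples, as CPM per kb of peak on a log axis, with 1 point per sample and no error bar. The red circles, Lgr5 Epcam-, lie below every other point of the same gene, and the squares of the Lgr5 Epcam+ pair lie farthest apart for *Ovol1*.

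The central comparison sets Lgr5 Epcam- against Lgr5 Epcam+ cells, that is, cells without and with the surface marker from tumours of 1 origin. Accessibility fell at 5 of the 7 genes (*Grhl2*, *Grhl3*, *Ovol2*, *Esrp1* and *Esrp2*) and rose at none, against 3.59% of all genes called lower (edgeR quasi-likelihood test, Benjamini-Hochberg adjusted p below 0.05). The 7 genes had from 4 (*Esrp2*) to 36 (*Grhl2*) peaks, against a median of 5 per gene, and the 3.59% was not matched for this. The median log2 ratio of the 7 genes was -1.38, and that of all genes -0.0030. In bulk samples, fewer cells with an open site and less accessibility per cell cannot be told apart. The spread was estimated from the Lgr5 Epcam+ pair, with 1 residual degree of freedom, and the lone samples were assumed to vary as that pair does.

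Of the Grainyhead genes, *Grhl2* (chr15:37232821-37363569) had 92.8 CPM in Lgr5 Epcam-, against 353 and 249 CPM in Lgr5 Epcam+ samples 1 and 2, 269 CPM in K14 Epcam+, 292 CPM in HF and 279 CPM in IFE. The Lgr5 Epcam- value lay well below a narrow band formed by the other 5. The log2 ratio to Lgr5 Epcam+ was -1.70 ± 0.37 (SE, edgeR adjusted p = 0.0132). *Grhl3* (chr4:135541887-135573632) had 83.3 CPM in Lgr5 Epcam-, 270 and 165 CPM in Lgr5 Epcam+, 183 CPM in K14 Epcam+, 140 CPM in HF and 252 CPM in IFE. Here the other samples spread more, with Lgr5 Epcam+ sample 1 and IFE high and HF low, and the log2 ratio of Lgr5 Epcam- to Lgr5 Epcam+ was -1.38 ± 0.36 (edgeR adjusted p = 0.0403). *Grhl1* (chr12:24572232-24617391) had 62.4 CPM in Lgr5 Epcam-, 112 and 105 CPM in Lgr5 Epcam+, 96.7 CPM in K14 Epcam+, 124 CPM in HF and 170 CPM in IFE. Its log2 ratio of -0.80 ± 0.29 did not pass the test (edgeR adjusted p = 0.130).

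Both Ovo genes were lowest in Lgr5 Epcam-, but only *Ovol2* passed the test. *Ovol2* (chr2:144305175-144332080), a repressor of mesenchymal genes that maintains epithelial cells, had 18.1 CPM in Lgr5 Epcam-, 39.7 and 35.9 CPM in Lgr5 Epcam+, 44.0 CPM in K14 Epcam+, 42.8 CPM in HF and 46.8 CPM in IFE. The 5 higher samples differed little, and the log2 ratio to Lgr5 Epcam+ was -1.07 ± 0.28 (edgeR adjusted p = 0.0402). *Ovol1* (chr19:5549137-5560575), a repressor active when epidermal progenitors leave the cell cycle, had 12.7 CPM in Lgr5 Epcam-, 74.4 and 26.5 CPM in Lgr5 Epcam+, 39.9 CPM in K14 Epcam+, 29.2 CPM in HF and 36.3 CPM in IFE. Lgr5 Epcam+ sample 1 stood above all others, so that the pair averaged 50.5 ± 33.9 CPM (SD, n = 2). Part of this gap was shared by the region. The 908 other peaks within 5 Mb had a median log2 ratio of sample 1 to sample 2 of 0.83, against 0.006 over all peaks. The log2 ratio of *Ovol1*, -1.99 ± 0.56, missed the threshold (edgeR adjusted p = 0.0566). Its size rested on Lgr5 Epcam+ sample 1, for it was -1.08 without that sample and -2.56 without sample 2. It was called in 4 of 11 tested alternatives, 2 of them added after the data had been seen, with adjusted p between 2.43e-07 and 0.122 (edgeR or DESeq2).

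Accessibility fell at both splicing regulator genes. *Esrp1* (chr4:11331933-11386783), the broader regulator of the pair, had 47.1 CPM in Lgr5 Epcam-, 182 and 152 CPM in Lgr5 Epcam+, 139 CPM in K14 Epcam+, 150 CPM in HF and 205 CPM in IFE. Its log2 ratio to Lgr5 Epcam+ was -1.82 ± 0.32 with the lowest adjusted p of the 7 genes (edgeR, 0.00612). *Esrp2* (chr8:106130319-106137193) had 33.2 CPM in Lgr5 Epcam-, 91.8 and 69.4 CPM in Lgr5 Epcam+, 65.8 CPM in K14 Epcam+, 64.1 CPM in HF and 94.8 CPM in IFE, with a log2 ratio of -1.28 ± 0.31 (edgeR adjusted p = 0.0300). The calls of *Esrp1* and *Grhl2* held in all 11 tested alternatives, whereas that of *Esrp2* held in 7, that of *Grhl3* in 6 and that of *Ovol2* in 5, with adjusted p up to 0.0933, 0.122 and 0.0847 for these 3 genes. The direction was the same in all 14 alternatives for each of the 7 genes.

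**Figure D2:**
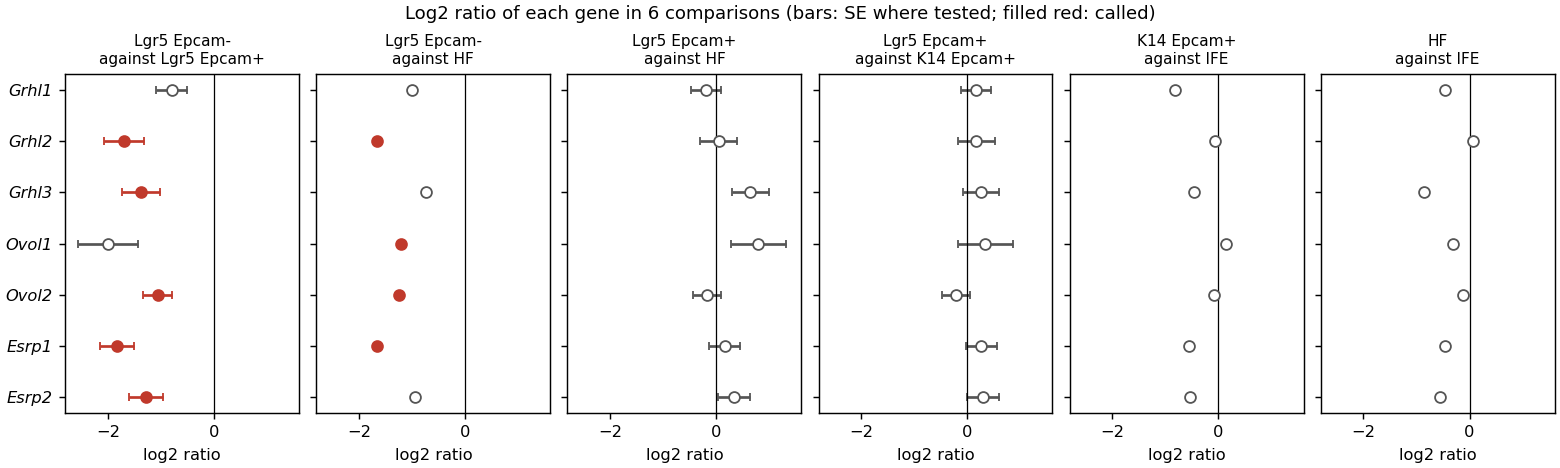
Log2 ratio of the 7 genes (rows) in 6 comparisons (panels), with the first-named group over the second. Bars are standard errors derived from the edgeR F statistic where a test was made. Filled red points passed the test or, in panels without bars, the rule of size. The left panel has 5 red points, all below 0, the panel of Lgr5 Epcam- against HF has 4, and the other 4 panels have none.

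Single peaks showed how the losses were spread over each gene. Of the 122 peaks, 27 fell in Lgr5 Epcam- relative to Lgr5 Epcam+ and none rose, against 5.53% of all peaks called lower and 7.17% called higher. The ratio was below 0 at 108 of the 122 peaks, with a median log2 ratio of -1.10 against -0.02 over all peaks. The 27 lay both inside (15) and outside (12) the gene spans, and the median peak among them had 3.50 CPM in Lgr5 Epcam- and a pair mean of 22.04 CPM in Lgr5 Epcam+. The 95 other peaks were mostly weaker, with a median pair mean of 2.59 CPM, and whether this kept losses from being called was not tested. Some of them were strong and changed little. The *Grhl3* peak chr4:135622311-135623937 had 19.9 CPM in Lgr5 Epcam- against 21.8 and 21.6 CPM in Lgr5 Epcam+. The *Esrp2* peak chr8:106140393-106141573 had 9.81 CPM against 8.97 and 8.95 CPM. In Lgr5 Epcam- 74 of the 122 peaks lay under 2 CPM, against 34 and 41 in the Lgr5 Epcam+ pair. That is 60.7% of the member peaks in Lgr5 Epcam-, where 37.1% of all peaks lay so low, against 27.9% and 33.6% in the pair, where 40.2% and 39.1% of all peaks did. At 24 of the 27 peaks Lgr5 Epcam- also lay below K14 Epcam+, HF and IFE, a count that is favoured by having chosen the peaks for low values in that sample. It was the lowest of all 6 samples at 77 of the 122 peaks, against 20.4% of all peaks.

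*Grhl2* had 10 of the 27 falling peaks, over 36 peaks in all. The peak over the lower-numbered end of its span, chr15:37232325-37233510, had 4.01 CPM in Lgr5 Epcam-, 40.4 and 28.6 CPM in Lgr5 Epcam+, 25.01 CPM in K14 Epcam+, 42.1 CPM in HF and 52.2 CPM in IFE. Accessibility there was almost lost in the single Epcam-negative sample, with a log2 ratio of -3.10 ± 0.40 (edgeR adjusted p = 2.65e-05). Inside the gene, chr15:37312537-37313818 had 1.72 CPM in Lgr5 Epcam-, 24.97 and 12.5 CPM in Lgr5 Epcam+, 14.1 CPM in K14 Epcam+, 10.04 CPM in HF and 15.5 CPM in IFE (log2 ratio -3.44 ± 0.63, edgeR adjusted p = 0.00119). The most negative ratio of the gene, -3.92 ± 0.86, stood 11.03 kb outside the span at chr15:37221210-37222364 (edgeR adjusted p = 0.00395). That peak had 0.513 CPM in Lgr5 Epcam-, 8.69 and 6.94 CPM in Lgr5 Epcam+, 7.51 CPM in K14 Epcam+, 1.94 CPM in HF and 1.82 CPM in IFE. It was thus weak in both normal tissues and in Lgr5 Epcam- cells.

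In *Grhl3* 5 of 24 peaks fell. The peak over the promoter printed above, chr4:135572658-135573939, had 6.23 CPM in Lgr5 Epcam-, 35.0 and 22.1 CPM in Lgr5 Epcam+, 20.4 CPM in K14 Epcam+, 7.99 CPM in HF and 19.5 CPM in IFE. Lgr5 Epcam- and HF were both low there, and the log2 ratio of Lgr5 Epcam- to Lgr5 Epcam+ was -2.20 ± 0.41 (edgeR adjusted p = 0.00601). Its neighbour 1.9 kb outside the span, chr4:135574968-135576037, had 6.31 CPM in Lgr5 Epcam- against 32.8 and 21.1 CPM in Lgr5 Epcam+ (log2 ratio -2.10 ± 0.42, edgeR adjusted p = 0.00814). A peak 26.0 kb outside, chr4:135599047-135600147, had 2.44 CPM in Lgr5 Epcam- against 18.7 and 7.08 CPM in Lgr5 Epcam+ (log2 ratio -2.40 ± 0.68, edgeR adjusted p = 0.0380).

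At *Grhl1* no change was called over the start shown. The peak over the printed promoter, chr12:24571500-24572739, had 17.4 CPM in Lgr5 Epcam-, 22.4 and 17.8 CPM in Lgr5 Epcam+, 16.7 CPM in K14 Epcam+, 24.0 CPM in HF and 26.4 CPM in IFE (edgeR adjusted p = 0.763). The 1 peak of 15 that fell lies inside the gene, chr12:24591834-24593885, with 11.2 CPM in Lgr5 Epcam-, 39.3 and 39.6 CPM in Lgr5 Epcam+, 27.4 CPM in K14 Epcam+, 22.7 CPM in HF and 48.9 CPM in IFE. Its log2 ratio was -1.82 ± 0.28 (edgeR adjusted p = 0.00221), and the Lgr5 Epcam+ pair agreed closely.

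At *Ovol2* 1 of 7 peaks fell, the peak over the printed promoter, chr2:144330713-144332382. It had 5.002 CPM in Lgr5 Epcam-, 28.5 and 21.4 CPM in Lgr5 Epcam+, 25.1 CPM in K14 Epcam+, 18.4 CPM in HF and 25.2 CPM in IFE (log2 ratio -2.32 ± 0.37, edgeR adjusted p = 0.00275). The other 5 samples held this promoter between 18.4 and 28.5 CPM. At *Ovol1* 1 of 8 peaks fell, 9.5 kb outside the span at chr19:5538382-5540888, with 3.50 CPM in Lgr5 Epcam-, 32.7 and 11.4 CPM in Lgr5 Epcam+, 12.5 CPM in K14 Epcam+, 5.72 CPM in HF and 8.55 CPM in IFE. Its log2 ratio was -2.66 ± 0.65 (edgeR adjusted p = 0.0101), and all 8 *Ovol1* peaks had a ratio below 0.

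Among 28 *Esrp1* peaks 7 fell. The strongest peak of the gene, chr4:11386536-11388620, spans its upper end and had 7.25 CPM in Lgr5 Epcam-, 63.4 and 46.8 CPM in Lgr5 Epcam+, 42.1 CPM in K14 Epcam+, 42.5 CPM in HF and 65.8 CPM in IFE. The log2 ratio was -2.93 ± 0.29 (edgeR adjusted p = 0.00023). A peak 32.7 kb outside the span, chr4:11418869-11420133, had 2.08 CPM in Lgr5 Epcam- against 20.3 and 14.8 CPM in Lgr5 Epcam+ (log2 ratio -3.08 ± 0.47, edgeR adjusted p = 0.0022). Inside the gene, chr4:11370193-11371351 had 2.05 CPM in Lgr5 Epcam- against 15.6 and 13.9 CPM in Lgr5 Epcam+ (log2 ratio -2.84 ± 0.53, edgeR adjusted p = 0.00546). The losses of *Esrp1* were therefore not limited to the gene's end.

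The compact *Esrp2* gene had 4 peaks, of which 2 fell by unequal amounts. At chr8:106134433-106135983, inside the gene, Lgr5 Epcam- had 5.002 CPM against 51.4 and 27.9 CPM in Lgr5 Epcam+, 31.8 CPM in K14 Epcam+, 20.6 CPM in HF and 42.2 CPM in IFE (log2 ratio -2.99 ± 0.41, edgeR adjusted p = 0.00183). At chr8:106136469-106137665, over the gene's upper end, Lgr5 Epcam- had 16.7 CPM against 36.6 and 32.0 CPM in Lgr5 Epcam+, 23.8 CPM in K14 Epcam+, 28.7 CPM in HF and 42.4 CPM in IFE (log2 ratio -1.04 ± 0.28, edgeR adjusted p = 0.0278). The difference between the 2 peaks was not tested.

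**Figure D3:**
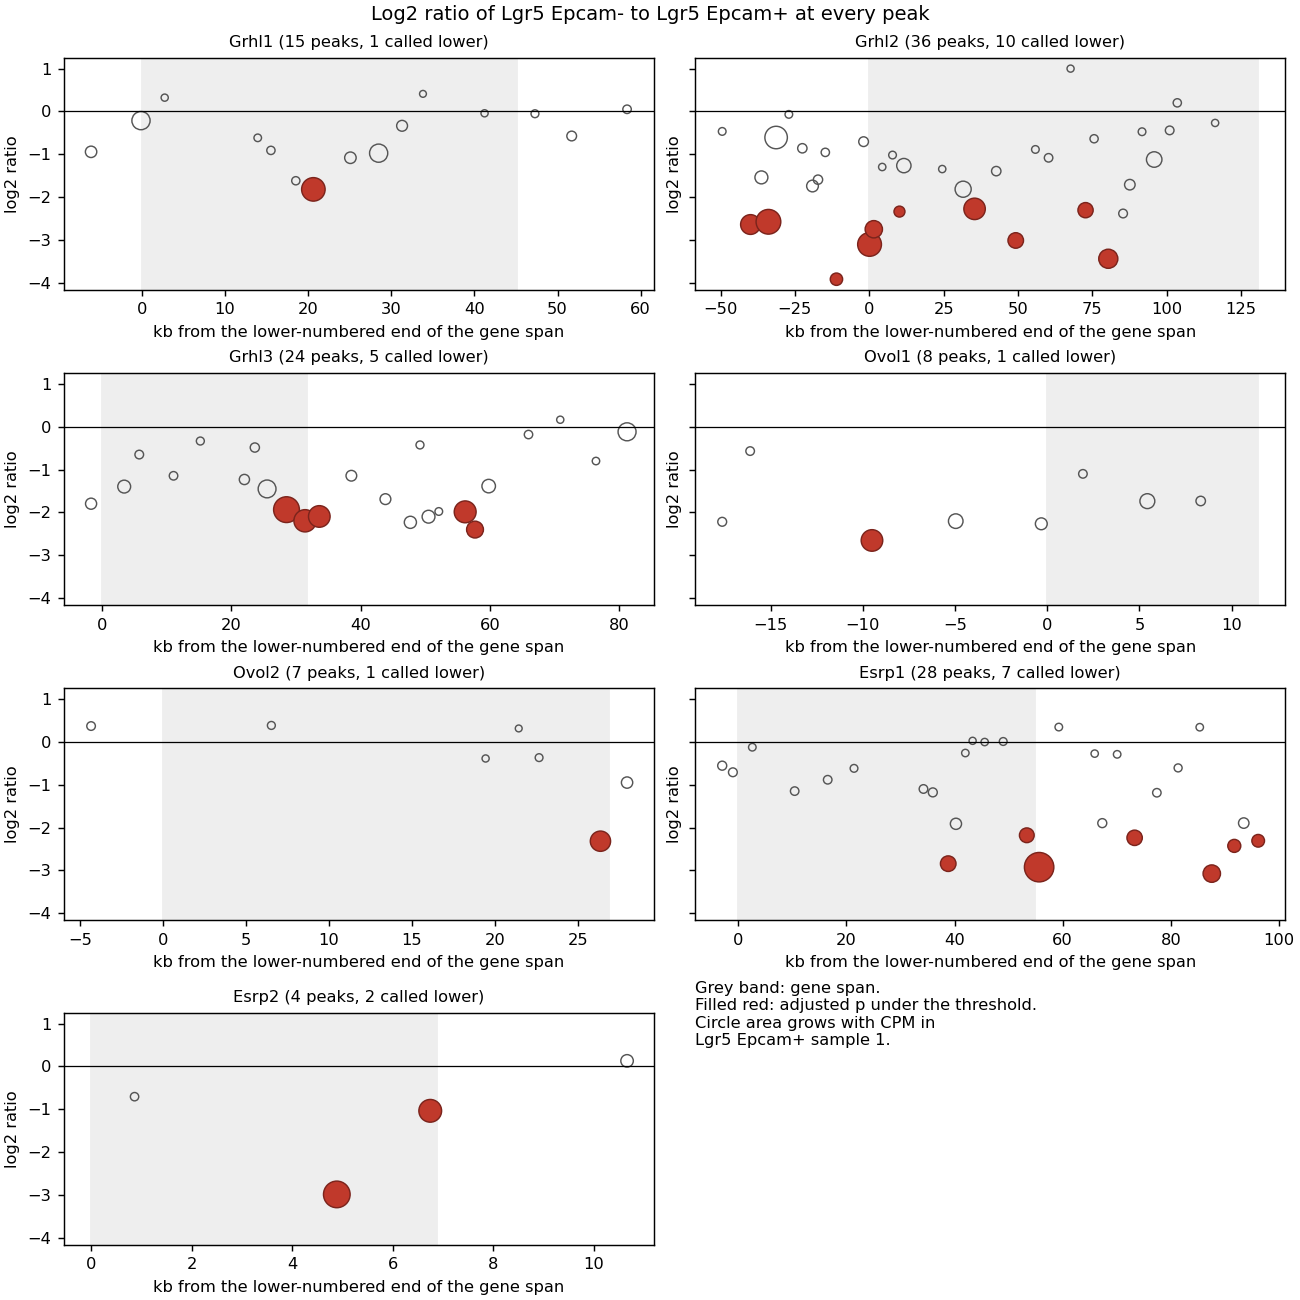
Log2 ratio of Lgr5 Epcam- to Lgr5 Epcam+ at each of the 122 peaks, by gene, against the distance in kb of the peak's midpoint from the lower-numbered end of the gene span (grey band). Filled red circles are the 27 peaks called lower, circle area grows with CPM in Lgr5 Epcam+ sample 1, and no peak was called higher. Called peaks are mostly strong ones and lie inside and outside the spans, and some strong peaks were not called.

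**Figure D4:**
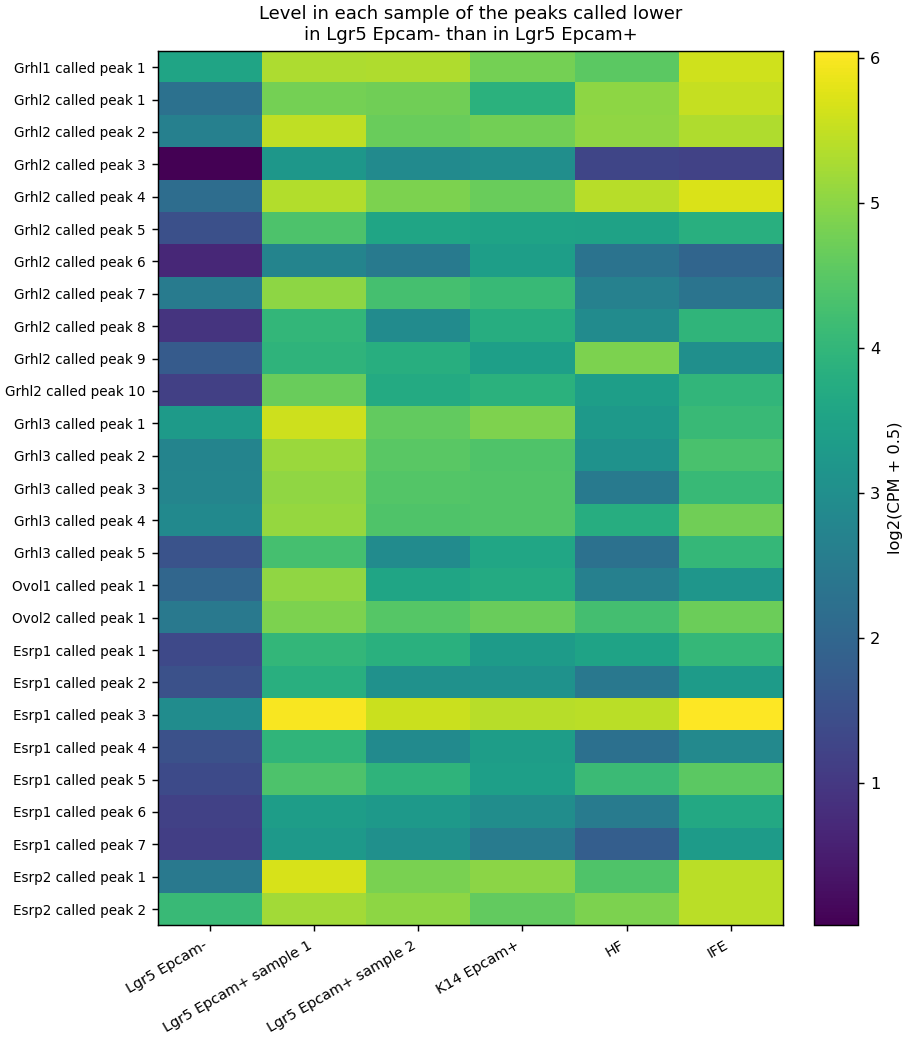
Level of the 27 peaks called lower in each sample, as log2(CPM + 0.5), ordered by gene and position, with colour from low (dark) to high (yellow). The Lgr5 Epcam- column is darkest in most rows, and some rows of *Grhl2*, *Grhl3* and *Esrp1* are also dark in HF.

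Genes known to act downstream of, or against, these regulators were read in the same comparison. Of 22 junction and epithelial identity genes, 7 fell in Lgr5 Epcam- and none rose, against 3.59% of all genes called lower. Their median log2 ratio was -1.06, and 21 ratios lay below 0. *Epcam*, whose protein was used for the sort, had 40.2 CPM in Lgr5 Epcam- against 188 and 188 CPM in Lgr5 Epcam+ (log2 ratio -2.22 ± 0.37, edgeR adjusted p = 0.00302). *Rab25*, a trafficking GTPase of epithelia, and *Dsp*, the desmosomal plaque protein desmoplakin, had log2 ratios of -2.07 ± 0.38 and -1.85 ± 0.31. *Cdh1*, which encodes E-cadherin, had 89.0 CPM in Lgr5 Epcam- against 273 and 223 CPM in Lgr5 Epcam+ (log2 ratio -1.48 ± 0.31, edgeR adjusted p = 0.0143). *Mal2* was the 1 gene of the list with a ratio above 0, 1.20 ± 0.41, and did not pass the test (edgeR adjusted p = 0.0907).

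No gene among the 8 splice targets of Esrp proteins passed the edgeR test in either direction, 1 had an unadjusted p below 0.05, and their median log2 ratio was -0.17. Of all 18104 genes, 3782 had an unadjusted p below 0.05 in this comparison (edgeR). *Fgfr2* had a log2 ratio of -0.24 ± 0.28 and *Cd44* one of -0.15 ± 0.32, values that concern accessibility and say nothing of isoforms. None of the 7 repressors of epithelial genes passed, with a median of 0.57 and 2 unadjusted p-values below 0.05. *Zeb1* had 143 CPM in Lgr5 Epcam- against 66.4 and 102 CPM in Lgr5 Epcam+ (log2 ratio 0.76 ± 0.34, edgeR adjusted p = 0.221), and *Zeb2* had a log2 ratio of 0.57 ± 0.29 (edgeR adjusted p = 0.286). *Snai1* and *Snai2* were at 0.10 ± 0.28 and -0.03 ± 0.32. The 4 relatives of the Grainyhead and Ovo families, *Tfcp2*, *Tfcp2l1*, *Ubp1* and *Ovol3*, and the 3 splicing factors of mesenchymal cells, *Rbfox2*, *Qk* and *Mbnl1*, gave no call, with 0 and 1 unadjusted p-values below 0.05.

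Markers of other cell types moved in the same comparison, in which 686 of 18104 genes were called higher and 650 lower. Of 8 fibroblast and pericyte genes 7 rose in Lgr5 Epcam-, with a median log2 ratio of 2.05. Their summed level was 679 CPM in Lgr5 Epcam-, 202 and 222 CPM in Lgr5 Epcam+, 242 CPM in K14 Epcam+, 257 CPM in HF and 190 CPM in IFE, and none of them was at 0 in any sample. *Col1a2* had 119 CPM in Lgr5 Epcam- against 11.4 and 15.6 CPM in Lgr5 Epcam+. *Pdgfra*, the gene of the sorted antigen CD140a, had 106 CPM against 67.9 and 67.2 CPM and did not pass (edgeR adjusted p = 0.184). Of 6 mesenchymal genes *Cdh11* and *Cdh2* rose, and *Vim* had a log2 ratio of 0.92 ± 0.28 (edgeR adjusted p = 0.0691). Of 6 endothelial genes *Tek* and *Emcn* rose, while *Pecam1*, the gene of CD31, had 82.7 CPM in Lgr5 Epcam- against 169 and 165 CPM in Lgr5 Epcam+. None of 8 leukocyte genes and none of 5 melanocyte and Schwann cell genes passed in either direction, with 0 and 1 unadjusted p-values below 0.05. Among all 18104 genes, 3782 had such a p-value (edgeR). Of 6 hair follicle genes 1 fell and of 6 epidermal differentiation genes 2 fell, and none of either list rose. Of 6 keratinocyte genes 3 fell (*Krt5*, *Krt14* and *Itga6*), and their summed level was 532 CPM in Lgr5 Epcam- against 1607 and 1164 CPM in Lgr5 Epcam+. *Krt14* had 44.5 CPM in Lgr5 Epcam- against 187 and 193 CPM in Lgr5 Epcam+, and *Epcam* had 40.2 CPM in Lgr5 Epcam-. Such levels do not by themselves show which cell types a sample holds. The part of these cell type markers in the lower accessibility of the 7 genes was not tested.

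**Figure D5:**
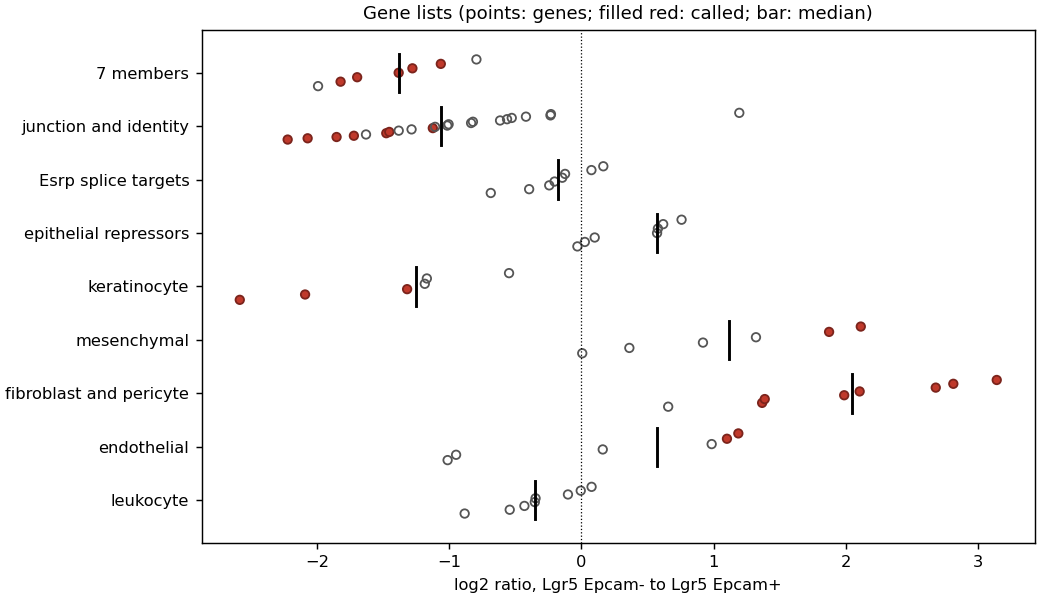
Log2 ratio of Lgr5 Epcam- to Lgr5 Epcam+ for the genes of 9 lists, with 1 point per gene, filled red where the gene passed the edgeR test, and a bar at each list's median. The 7 regulators and the junction, identity and keratinocyte genes lie mostly below 0, and all fibroblast and pericyte genes lie above 0.

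Lgr5 Epcam- cells were also set against HF, normal tissue of the compartment in which the tumours were started. With 1 sample on each side no test was made. A gene was called where its log2 ratio reached 1 in size and 0.5 in each run, and a peak where it reached 2 and 1. For *Grhl2*, *Ovol1* and their peaks the paired-end run alone was used, with only the first limit (1 for genes, 2 for peaks). *Grhl2* (log2 ratio -1.65), *Esrp1* (-1.67), *Ovol2* (-1.24) and *Ovol1* (-1.20) met the rule, all lower in Lgr5 Epcam-, against 8.9% of all genes. *Grhl1* (-0.99), *Esrp2* (-0.95) and *Grhl3* (-0.75) had smaller ratios. The 95% counting interval of the *Grhl2* ratio ran from -1.73 to -1.58 and that of *Ovol1*, the gene with the fewest counts, from -1.43 to -0.99, and both cover counting error only. Of the peaks, 21 were lower in Lgr5 Epcam- and none higher, against 6.43% and 7.71% of all peaks, and 12 of the 21 belong to *Grhl2*. Its end peak, with the values given above, had a log2 ratio of -3.36. Rule of size and fit share the Lgr5 Epcam- sample in both comparisons, so the losses are not independent of those against Lgr5 Epcam+.

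The Epcam-positive cells of Lgr5 tumours were likewise set against HF. No gene of the 7 passed the edgeR test, against 12.6% of all genes called in either direction, and by DESeq2 the number was also 0. The number with an unadjusted p below 0.05 was 0, against 5243 of all 18104 genes (edgeR). The log2 ratios ran from -0.20 ± 0.28 for *Grhl1* to 0.79 ± 0.52 for *Ovol1*, with 0.64 ± 0.34 for *Grhl3* and 0.04 ± 0.34 for *Grhl2*. The sign for *Grhl2* turned under total-count and loess scaling and within 10 kb of the gene, and that for *Esrp1* under loess scaling. Without Lgr5 Epcam+ sample 1 the ratio of *Ovol1* was -0.13 and that of *Grhl2* -0.22, and without sample 2 they were 1.35 and 0.27. The ratio of *Grhl1* was 0.13 when centred on the peaks within 5 Mb. Within the genes, 10 peaks rose and 5 fell, against 9.52% and 7.89% of all peaks, and 40 of the 122 had an unadjusted p below 0.05. The balance of directions depended on the scaling, with 8 peaks higher and 13 lower under total-count scaling and 4 higher and 6 lower under loess scaling. The shares of all peaks under these scalings, and with an unadjusted p below 0.05, were not computed. With TMM the share of member peaks called was not above that of all peaks in either direction.

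*Grhl2* held peaks that moved both ways between Lgr5 Epcam+ and HF, 4 higher and 3 lower. At chr15:37299996-37300996, inside the gene, Lgr5 Epcam+ had 0.866 and 0.413 CPM and HF 11.8 CPM, a fall with a log2 ratio of -4.17 ± 0.70 (edgeR adjusted p = 0.000179). That peak had 1.31 CPM in Lgr5 Epcam-, 0.824 CPM in K14 Epcam+ and 1.08 CPM in IFE, and was thus high in HF alone among these 6 samples. At chr15:37263830-37264928, also inside the gene, Lgr5 Epcam+ had 16.9 and 7.39 CPM against 1.33 CPM in HF, a rise with a log2 ratio of 3.18 ± 0.81 (edgeR adjusted p = 0.00647). All 3 tumour groups lay above both normal tissues at this site, with 3.45 CPM in Lgr5 Epcam-, 10.1 CPM in K14 Epcam+ and 1.20 CPM in IFE.

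*Grhl3* had 5 peaks that rose and 1 that fell in Lgr5 Epcam+ relative to HF. The promoter peak was among those that rose, with a log2 ratio of 1.84 ± 0.41 (edgeR adjusted p = 0.00846), at 35.0 and 22.1 CPM in Lgr5 Epcam+ against 7.99 CPM in HF. IFE, with 19.5 CPM, lay near Lgr5 Epcam+ sample 2 there. The largest rise was 28.1 kb outside the span at chr4:135601161-135602265, with 11.01 and 4.92 CPM in Lgr5 Epcam+ against 1.27 CPM in HF (log2 ratio 2.65 ± 0.73, edgeR adjusted p = 0.0249). The peak that fell, chr4:135607305-135608443, had 2.40 and 2.26 CPM in Lgr5 Epcam+ against 13.5 CPM in HF. Of the other genes, *Ovol1* had 1 peak that rose, the peak 9.5 kb outside its span (log2 ratio 1.95 ± 0.63, edgeR adjusted p = 0.0324), and *Grhl1* 1 that fell, chr12:24605546-24606546, with 0.592 and 0.792 CPM in Lgr5 Epcam+ against 4.13 CPM in HF. No *Ovol2*, *Esrp1* or *Esrp2* peak was called.

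The epithelial repressors moved in this comparison. Of the 7 genes, 5 rose in Lgr5 Epcam+ relative to HF and none fell, against 1179 of 18104 genes called higher. Their median log2 ratio was 1.25. *Snai1* had the largest ratio, 1.86 ± 0.31 (edgeR adjusted p = 0.00351), whereas *Zeb1*, with 0.51 ± 0.36, did not pass (edgeR adjusted p = 0.379). Their summed level was 800 CPM in Lgr5 Epcam-, 595 and 637 CPM in Lgr5 Epcam+, 497 CPM in K14 Epcam+, 284 CPM in HF and 225 CPM in IFE. The summed level of the repressor genes was thus higher in all 4 tumour samples than in both normal tissues, and the 7 epithelial regulators were lowest in the Epcam-negative one. Among the 22 junction and identity genes *Cldn3*, *Cldn4* and *Epcam* rose in Lgr5 Epcam+ relative to HF and *Mal2* fell.

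K14 Epcam+ set against IFE is the matching contrast for the other tumour origin, with 1 sample on each side and no test. No gene of the 7 met the rule of size, against 17.7% of all genes. *Grhl1* had the largest ratio, -0.81, followed by *Esrp1* (-0.56), *Esrp2* (-0.53) and *Grhl3* (-0.46), while *Ovol2* (-0.09), *Grhl2* (-0.06) and *Ovol1* (0.14) were near 0. For *Grhl2* the single-end run alone, which is short of counts on that chromosome in K14 Epcam+, gave -0.79, and for *Ovol1* it gave -0.78. The rule called 3 peaks higher and 10 lower than in IFE, against 7.74% and 5.7% of all peaks. *Grhl3* had 5 of the lower peaks and *Grhl1* 3, among them chr12:24565098-24567131 with 4.10 CPM in K14 Epcam+ against 23.1 CPM in IFE. The largest rise was at the *Grhl3* peak chr4:135601161-135602265, with 8.48 CPM in K14 Epcam+ against 0.859 CPM in IFE. Of the repressor genes 6 of 7 met the rule, all higher in K14 Epcam+, against 2033 of 18104 genes called higher.

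The origins were also compared directly. Lgr5 Epcam+ against K14 Epcam+ gave no call among the 7 genes or the 122 peaks, against 0.0387% of all genes and 0.00903% of all peaks. DESeq2 gave none either, and 2 of the 122 peaks and 0 of the 7 genes had an unadjusted p below 0.05 (edgeR). Of all 18104 genes, 906 had one, and the share of all peaks was not computed. The log2 ratios lay between -0.22 ± 0.26 (*Ovol2*) and 0.34 ± 0.51 (*Ovol1*). Over the alternatives *Ovol1* ran from -0.55, without Lgr5 Epcam+ sample 1, to 1.16 in the single-end run alone. *Grhl2* reached 1.03 in that run, which is short of counts on both chromosomes in K14 Epcam+. Without Lgr5 Epcam+ sample 1 the ratios of *Grhl2* and *Grhl3* were also below 0, at -0.065 and -0.13. Standard errors of 0.26 to 0.51 leave room for moderate differences in either direction. The difference between the tumour changes, Lgr5 Epcam+ against HF less K14 Epcam+ against IFE, was tested after the data had been seen and was called for none of the 7 genes. It was largest for *Grhl3*, at 1.10 ± 0.52 on the log2 scale (edgeR adjusted p = 0.857).

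The normal tissues, HF against IFE, gave no call among the 7 genes by the rule of size, against 4.61% of all genes. *Grhl3* had the largest ratio, -0.85, with 140 CPM in HF against 252 CPM in IFE. *Esrp2* (-0.56), *Esrp1* (-0.46) and *Grhl1* (-0.45) were also lower in HF, and *Grhl2* (0.06) was level. Of the peaks, 2 were higher and 1 lower in HF, all in *Grhl2*, against 1.73% and 0.739% of all peaks. Peaks of *Grhl2* were judged on the paired-end run alone, without the limit for each run. The 2 peaks higher in HF include chr15:37299996-37300996, with 11.8 CPM in HF against 1.08 CPM in IFE (log2 ratio 3.33). Between Lgr5 Epcam+ samples 1 and 2 the rule of size called *Ovol1* (log2 ratio 1.49) and 4.86% of all genes, which shows how far samples of 1 group can lie apart. The other peaks within 5 Mb of *Ovol1* had a median log2 ratio of 0.83 between these samples. Among the 122 peaks the rule called 2 higher in sample 1 and none lower, against 0.568% and 1.02% of all peaks.

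Likeness between genes was described over the 6 samples, which differ in depth and share their libraries across genes. Between members, Pearson's r of log2 CPM ran from 0.589 (*Grhl1* and *Ovol1*) to 0.977 (*Esrp1* and *Esrp2*). Among 5930 genes that varied between samples and lay over 1 Mb from every member, the nearest to *Grhl2* were *Hr* (r = 0.9995), *Fam83g* (0.998) and *Gpr132* (0.997). The nearest to *Esrp1* was *Dmkn* (0.996), that to *Grhl3* was *Fam3b* (0.995), that to *Esrp2* was *Tlcd3a* (0.993), that to *Ovol2* was *Acsbg1* (0.992) and that to *Grhl1* was *Arr3* (0.990). The highest r for *Ovol1* was 0.977, with *Tgm1*, which encodes the transglutaminase of the cornified envelope. All 7 members are low in the same sample, and 6 samples are few for such a measure.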

How the data were processed

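The authors deposited raw counts per peak, as HTSeq tables of 12 runs over 1 shared list of 177240 peaks. The submitters' processing notes name Bowtie2, HOMER, bedtools, HTSeq and mm10. Versions, duplicate removal, insertion shift and peak calling: not given in the sources used here. Of the counts that HTSeq placed in a peak or in no peak, 21.3% to 51.1% per run lay in peaks. Those in no peak were left out, and any other summary counts were not part of this share. In the single-end and paired-end runs it was 31.57% and 37.85% in Lgr5 Epcam-. It was 43.7% and 51.1% in Lgr5 Epcam+ sample 1, and 38.58% and 45.7% in sample 2. Whether this difference affects the ratios was not tested.

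The 2 runs of a sample were summed on chromosomes 1 to 14, and the paired-end run was used alone from chromosome 15 on, because the K14 Epcam+ single-end counts drop there. Peaks were assigned to the nearest protein-coding span of the RefSeq table within 50 kb, and gene counts are sums over peaks. Genes (18104) and peaks (177238) that passed filterByExpr with a minimum count of 10 were fitted with edgeR 4.0.16 (limma 3.58.1, R 4.3.3): scaling by TMM, 1 robust quasi-likelihood fit of the 6 samples in 5 groups, F test, Benjamini-Hochberg adjustment over the whole table, threshold 0.05. Both parts of the genome were fitted apart and adjusted together. Standard errors were derived from the F test, as the size of the log2 ratio divided by the square root of F. All 122 member peaks and 7 genes passed the filter. Comparisons of 1 sample with 1 had no test and used the rule of size on log2 CPM with a prior count of 2. DESeq2 1.42.0 was an alternative. Part of the tumour genotype is not reported here. The scripts were tested on simulated data. Members, gene lists and tests were chosen with earlier results of these data known, as was the rule for named peaks: those over known starts, up to 3 called peaks of largest ratio per gene between Lgr5 Epcam- and Lgr5 Epcam+, and the largest per gene in other comparisons. Lists were named by up to 3 called and 2 uncalled genes beside fixed ones.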

Additional observations from a re-analysis of the deposited data

How the results depend on the processing

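The number of the 7 genes called lower in Lgr5 Epcam- than in Lgr5 Epcam+, 5, was 3 under total-count scaling, of which 2 were among those 5. It was 2 under loess scaling, 3 where runs were summed on every chromosome and 2 in the single-end run alone. With a gene's window cut to 10 kb it was 2, against 4 with the paired-end run alone and 6 with DESeq2. The 27 peaks called lower were 20 to 29 in these settings. Over all genes, calls of lower accessibility also dropped, from 650 with TMM to 389 under total-count scaling and 242 under loess scaling. Numbers over all genes in the other settings, and over all peaks, were not computed. Adding K14 Epcam+ to the Lgr5 Epcam+ side gave 5 genes and 28 peaks. Also leaving out 1 of the pair, chosen after seeing the data, gave 6 genes and 20 peaks without Lgr5 Epcam+ sample 1, and 6 genes and 48 peaks without sample 2. Leaving out 1 of the pair with no such addition leaves no residual degree of freedom, so only ratios were computed, and the lone samples had no replicate to leave out. In Lgr5 Epcam+ against HF, the log2 ratio of Grhl2, 0.04, was -0.071 with total-count scaling, -0.29 with loess scaling and -0.073 within 10 kb, and that of Esrp1, 0.16, was -0.10 with loess scaling. Under total-count scaling 39.8% of all called genes were higher in that comparison, against 51.5%, and 59.9% against 51.3% in Lgr5 Epcam- against Lgr5 Epcam+. Under total-count scaling the median log2 ratio of all genes was -0.0995 against 0.0163 with TMM in Lgr5 Epcam+ against HF, and -0.0936 against 0.0369 in Lgr5 Epcam+ against K14 Epcam+, so ratios under that scaling are relative to this shift. The rule of size depended on its limits. With a limit of 0.5 for genes it called 7 in place of 4 in Lgr5 Epcam- against HF, 3 in place of 0 in K14 Epcam+ against IFE and 2 in place of 0 in HF against IFE. With a limit of 1 for peaks it called 60 in place of 21, 49 in place of 13 and 33 in place of 3. The shares of all genes and all peaks called at these lower limits were not computed. The single-end run alone gave 8 peaks in K14 Epcam+ against IFE, and in HF against IFE it gave 0, the paired-end run alone 7 and summed runs 1, where 1 gene was called within 10 kb. The cause of these changes was not tested. No paired analysis was possible, because Lgr5 Epcam- has 1 sample and the mouse of origin of each sample is not given in the sources used here. With 1 sample in 4 of the 5 groups, variation between mice is not measured.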
